A study of Rattus norvegicus with 8 samples.

Results

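Opioid and cannabinoid signalling was followed through 8 genes chosen by name: the receptor genes Oprm1, Oprd1, Oprk1, Oprl1 and Cnr1, and the peptide precursor genes Penk, Pdyn and Pnoc. They are 8 of 15154 named genes on a rat expression array and carry 12 of its 30367 probes. Of these, 10 probes of 7 genes passed the filter on dim probes and were tested, and Oprk1 did not pass. The cells were dorsal root ganglion cultures, which hold sensory neurons with their glia and other cells, from Wistar rats of 0 to 5 days with both sexes pooled. They were kept in serum-free medium with an agent pair against dividing cells (fluorodeoxyuridine and uridine), and 2 to 3 days after plating a human protein was added at 100 ng/ml and left on for 5 days. The protein carried P61S (3 arrays), P61S/R100E (3 arrays) or neither change (wild type, 2 arrays). Every group was treated, so no array shows the cultures without the protein. The labels do not say whether the replicates came from separate cultures, and the p-values measure the spread between these arrays, which may be technical.

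Opioid receptors are G protein-coupled receptors that act through inhibitory G proteins: they lower cyclic AMP, open inward rectifier potassium channels and close voltage-gated calcium channels. Oprm1, Oprd1 and Oprk1 encode the mu, delta and kappa receptors, and Oprl1 encodes the related nociceptin receptor. Their peptides are cut from precursors: Penk yields enkephalins, Pdyn dynorphins and Pnoc nociceptin. Cnr1 encodes the CB1 cannabinoid receptor, which couples to the same class of G proteins and is found on sensory neurons and their central endings.

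Signals are log2 intensities relative to the 75th percentile of each array, so 0 is that percentile and 1 unit is a doubling. All 8 arrays shared 1 slide and 1 scan. The 75th percentile lay between 3267 and 5269 intensity units, 78.7% to 88.8% of spots per array were well above background by the scanner's own mark, and no spot was saturated. A probe was counted as above background on an array only where every spot used for it carried that mark. Wild type replicate 2 stood apart from the rest: its correlation across probes with the other arrays was 0.983 to 0.989, against 0.990 to 0.996 between all other pairs. Both wild type arrays lay in column 4 of the slide, where no other group had an array, so column and protein cannot be told apart in a comparison with wild type. P61S lay in columns 1, 1 and 2 and P61S/R100E in columns 2, 3 and 3, so column largely went with protein between these groups too. Neuronal markers were present throughout, with all 12 tested pan-neuronal genes above background on all arrays. Their summed signals, as multiples of the 75th percentile, ran from 169.9 to 196.9 with P61S, from 183.4 to 197.8 with P61S/R100E and from 180.9 to 207.5 with wild type. In such mixed cultures, fewer cells of a type and less RNA per cell cannot be told apart.

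None of the 10 tested probes of these genes differed between any of the 3 proteins at an adjusted p under 0.05 (limma, Benjamini-Hochberg over all 23585 tested probes). In each of these 3 comparisons 0 of the 23585 probes passed, so the absence is not particular to these genes. Oprk1 was not tested. Penk and Pnoc gave bright signals on every array, and their group means differed by no more than 0.07 and 0.20 log2 units. The mu, delta and cannabinoid receptor probes were dimmer but above background on all 8 arrays. Pdyn, Oprk1 and Oprl1 were at the edge of detection. The widest measured difference among the tested probes was 0.94 log2 units, for Pdyn between P61S/R100E and wild type, with 95% bounds from -0.45 to 2.34.

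**Figure D1:**
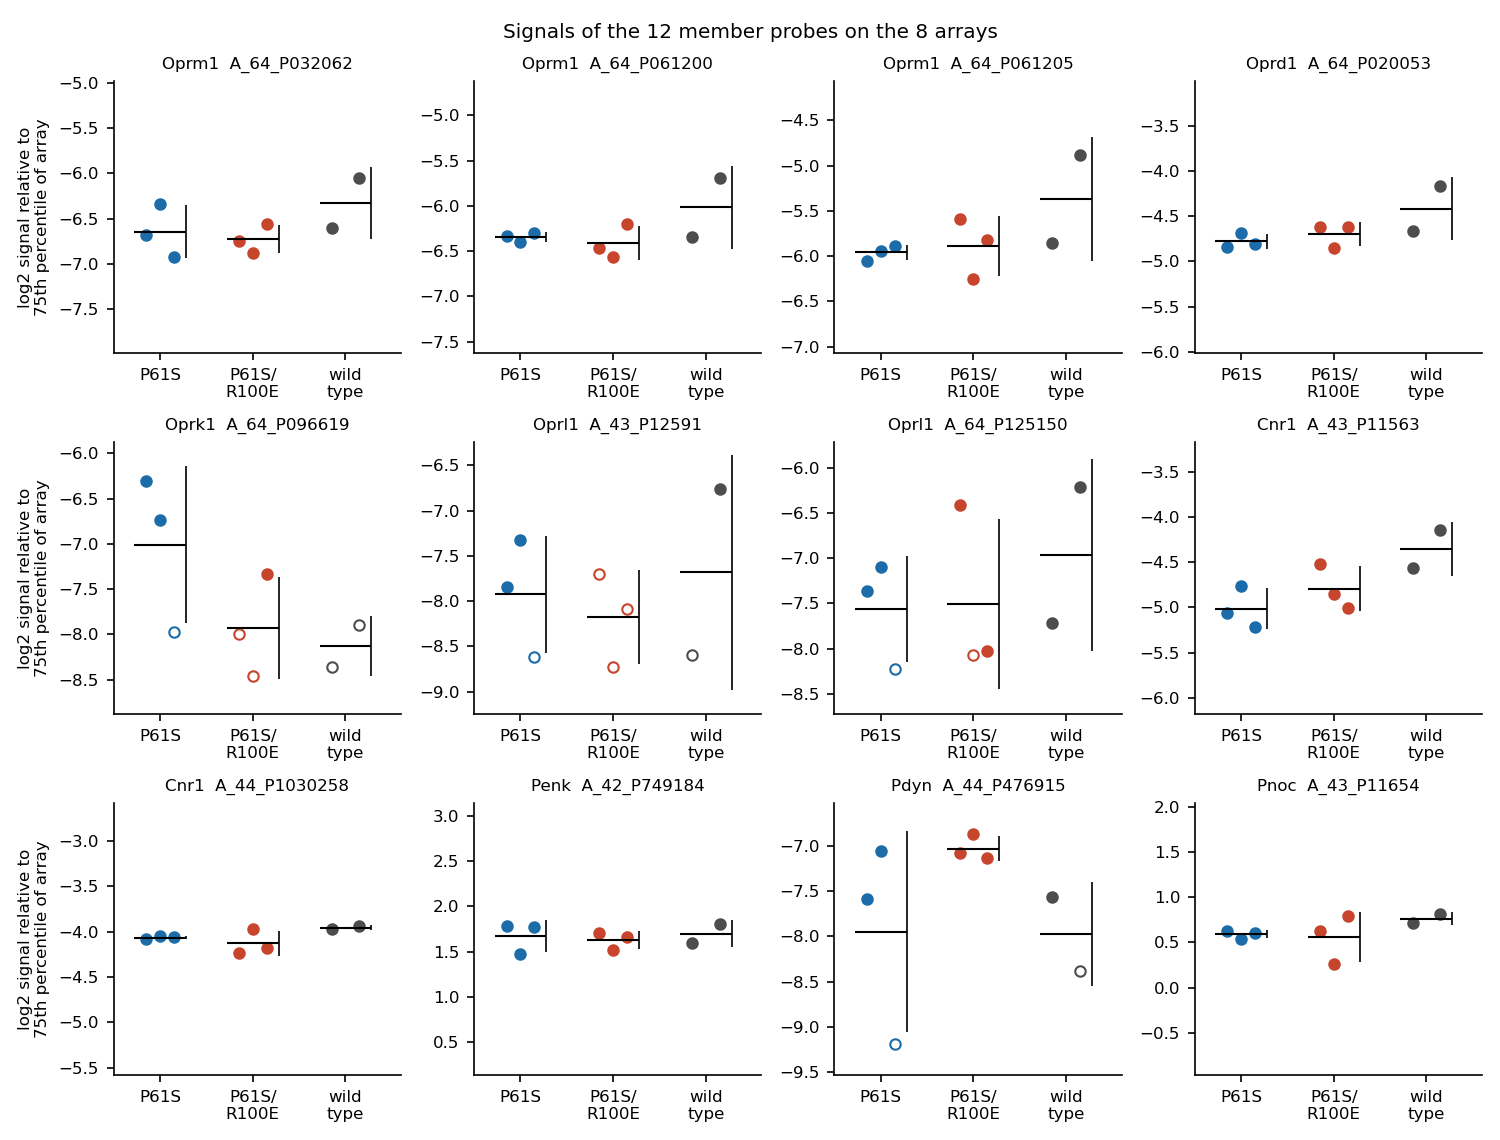
Log2 signal (vertical axis, 0 at the 75th percentile of the array) for each of the 12 probes on the 8 arrays, with 1 point per array, horizontal bars at group means, vertical bars for 1 SD either way and open points where the probe was not well above background. Penk and Pnoc lay above 0 on every array; the Pdyn, Oprk1 and Oprl1 probes lay lowest and spread most.

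Among the peptide precursors, Penk (probe A_42_P749184, 10 spots per array) read 1.78, 1.47 and 1.77 with P61S, 1.71, 1.52 and 1.66 with P61S/R100E, and 1.59 and 1.80 with wild type. The groups overlapped fully: the lowest array was P61S replicate 2 and the highest wild type replicate 2. The group means were 1.67 ± 0.18 (SD, n = 3), 1.63 ± 0.10 (SD, n = 3) and 1.70 ± 0.15 (SD, n = 2). P61S/R100E minus P61S was -0.04 with a standard error of 0.12 and 95% bounds from -0.33 to 0.24. The 10 spots of an array had a median SD of 0.0665, so the arrays varied more than the spots did.

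Pnoc (A_43_P11654) read 0.63, 0.54 and 0.60 with P61S, 0.63, 0.26 and 0.79 with P61S/R100E, and 0.71 and 0.81 with wild type. P61S/R100E replicate 2 was the lowest array and wild type replicate 2 the highest. The 3 P61S arrays lay below both wild type arrays, while the P61S/R100E arrays, from 0.26 to 0.79, overlapped both other groups. P61S/R100E minus P61S was -0.03 (95% bounds -0.36 to 0.30) and P61S minus wild type was -0.17 (-0.54 to 0.20).

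Pdyn (A_44_P476915) is shown with its promoter because it had the widest group difference among the tested probes. The 250 bases upstream of its annotated start (RefSeq, GRCr8 chr3:137366504-137366753, minus strand, printed 5′ to 3′ with the match to the TATA box letters TATAAA in capitals) were:
Pdyn: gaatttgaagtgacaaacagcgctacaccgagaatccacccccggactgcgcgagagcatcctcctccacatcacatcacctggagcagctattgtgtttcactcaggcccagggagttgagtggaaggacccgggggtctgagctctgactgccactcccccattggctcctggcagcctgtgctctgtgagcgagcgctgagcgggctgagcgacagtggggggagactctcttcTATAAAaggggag
The match began 13 bases before the annotated start, and the window had 59.2% G and C against a median of 51.2% over all windows. On either strand, TATAAA occurred in 12.9% of the 33469 windows of this length. The cyclic AMP response element TGACGTCA (1.59% of windows) and the AP-1 letters TGANTCA (6.34%) did not occur in it. A match or its absence describes these letters only.

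Pdyn signals were -7.59, -7.06 and -9.19 with P61S, -7.08, -6.87 and -7.14 with P61S/R100E, and -7.57 and -8.38 with wild type. The probe was above background on all 3 P61S/R100E arrays and not on P61S replicate 3 or wild type replicate 2, and it entered the test only through P61S/R100E, the group in which it was highest. P61S replicate 2, at -7.06, lay among the P61S/R100E arrays, so those groups overlapped, whereas both wild type arrays lay below them. Group means were -7.95 ± 1.11 (SD, n = 3), -7.03 ± 0.14 (SD, n = 3) and -7.97 ± 0.57 (SD, n = 2). P61S/R100E minus P61S was 0.92 (standard error 0.53, 95% bounds -0.33 to 2.16, adjusted p = 0.9995 by limma), and P61S/R100E minus wild type was 0.94 (standard error 0.59, adjusted p = 0.7456). Both sizes depended on the setting: over the alternatives the first ran from 0.19 to 1.36 and the second from 0.25 to 1.67. Without P61S replicate 3 the first Pdyn difference was 0.29, with slide column as a linear covariate it was 0.19, and without wild type replicate 2 the second was 0.53. With normexp background correction, which draws dim probes together, they were 0.24 and 0.25.

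The mu receptor gene Oprm1 had 3 probes, each designed on a different RefSeq transcript of the gene. Probe A_64_P061205 read -6.05, -5.94 and -5.89 with P61S, -5.59, -6.25 and -5.82 with P61S/R100E, and -5.86 and -4.89 with wild type. Probe A_64_P061200 read -6.33, -6.40 and -6.30, then -6.46, -6.56 and -6.20, then -6.34 and -5.69 in the same order. Probe A_64_P032062 read -6.68, -6.34 and -6.92, then -6.74, -6.87 and -6.56, then -6.61 and -6.05. On all 3 Oprm1 probes wild type replicate 2 was the highest array, while wild type replicate 1 lay close to or within the range of the arrays with the altered proteins. P61S/R100E minus P61S was 0.07, -0.06 and -0.08, with bounds on both sides of 0 for each. P61S minus wild type was -0.59, -0.33 and -0.32, and the unadjusted p was 0.092, 0.15 and 0.20 (limma, adjusted p = 0.9989 for each).

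The delta receptor gene Oprd1 is shown with its promoter because, like 1 of the Oprm1 probes, it had all P61S arrays below both wild type arrays. The 250 bases upstream of its annotated start (RefSeq, GRCr8 chr5:149625000-149625249, minus strand, 5′ to 3′, the E-box letters CACGTG in capitals) were:
Oprd1: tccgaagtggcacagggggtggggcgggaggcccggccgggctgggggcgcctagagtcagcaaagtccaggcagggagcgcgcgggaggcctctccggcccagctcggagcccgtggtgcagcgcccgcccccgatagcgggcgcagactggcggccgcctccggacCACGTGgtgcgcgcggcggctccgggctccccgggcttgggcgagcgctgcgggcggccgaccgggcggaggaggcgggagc
This window was 79.6% G and C, and its CACGTG began 82 bases before the start. CACGTG reads the same on both strands and occurred in 5.59% of all windows of this length. The Oprm1 windows are not printed, and they held none of the TATA box, E-box, cyclic AMP response element or AP-1 letters.

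Oprd1 (A_64_P020053) read -4.84, -4.69 and -4.81 with P61S, -4.62, -4.86 and -4.63 with P61S/R100E, and -4.66 and -4.17 with wild type. The P61S arrays lay below both wild type arrays, and the nearest pair was P61S replicate 2 at -4.69 and wild type replicate 1 at -4.66. Both Oprd1 spots of an array had a median SD of 0.347, above the residual SD of 0.186 between arrays, with the same spot brighter on every array. P61S minus wild type was -0.36 (standard error 0.16, bounds -0.75 to 0.02, unadjusted p = 0.061 and adjusted p = 0.9989 by limma). P61S/R100E minus P61S was 0.08 (bounds -0.26 to 0.42).

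The kappa receptor gene Oprk1 (A_64_P096619) was not tested, because no group had it above background on all of its arrays. It read -6.31, -6.74 and -7.98 with P61S, -7.99, -8.46 and -7.33 with P61S/R100E, and -8.36 and -7.90 with wild type. Both spots were above background on P61S replicates 1 and 2 and on P61S/R100E replicate 3. On P61S/R100E replicate 1 and on both wild type arrays 1 of the 2 spots was, so the probe was not counted there. The 2 P61S arrays above background lay above all other arrays. No fold is given, since every group held readings that were not above background. In P61S replicate 1 the 2 Oprk1 spots disagreed, at -7.50 and -5.11, so the signal of that array rests partly on the brighter spot.

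The nociceptin receptor gene Oprl1 had 2 probes, both at the edge of detection. The tested one (A_64_P125150, 1 spot) read -7.36, -7.10 and -8.23 with P61S, -6.42, -8.07 and -8.02 with P61S/R100E, and -7.72 and -6.22 with wild type. It was below the background mark on P61S replicate 3 and P61S/R100E replicate 2, and it entered the test only through wild type, the group in which its mean was highest. Its residual SD was 0.847, and 2.62% of tested probes had a larger one; P61S/R100E minus P61S was 0.06 with bounds from -1.34 to 1.46. The other Oprl1 probe (A_43_P12591) read -7.84, -7.33 and -8.61, then -7.70, -8.73 and -8.09, then -8.60 and -6.77. All its used spots were above background on P61S replicates 1 and 2 and wild type replicate 2 only. On P61S/R100E replicate 1 and wild type replicate 1, 1 of its 2 spots was. Both Oprl1 probes were highest on wild type replicate 2.

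The cannabinoid receptor gene Cnr1 had 2 probes on the same transcript, which did not behave alike. The probe with 10 spots (A_44_P1030258) read -4.08, -4.05 and -4.06 with P61S, -4.23, -3.97 and -4.18 with P61S/R100E, and -3.97 and -3.93 with wild type. The P61S arrays lay close together on this probe, and their difference from wild type was -0.11 (bounds -0.35 to 0.13). The probe with 2 spots (A_43_P11563) read -5.06, -4.76 and -5.21 with P61S, -4.52, -4.85 and -5.01 with P61S/R100E, and -4.56 and -4.14 with wild type. On both probes the P61S arrays lay below both wild type arrays, and P61S/R100E overlapped P61S. P61S minus wild type on A_43_P11563 was -0.66 (standard error 0.21, bounds -1.15 to -0.17, unadjusted p = 0.016 and adjusted p = 0.9989 by limma), a 1.58-fold lower signal, and -0.45 without wild type replicate 2. The difference P61S/R100E minus P61S took opposite signs on the probes, 0.22 and -0.06, with bounds that include 0 on each.

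**Figure D2:**
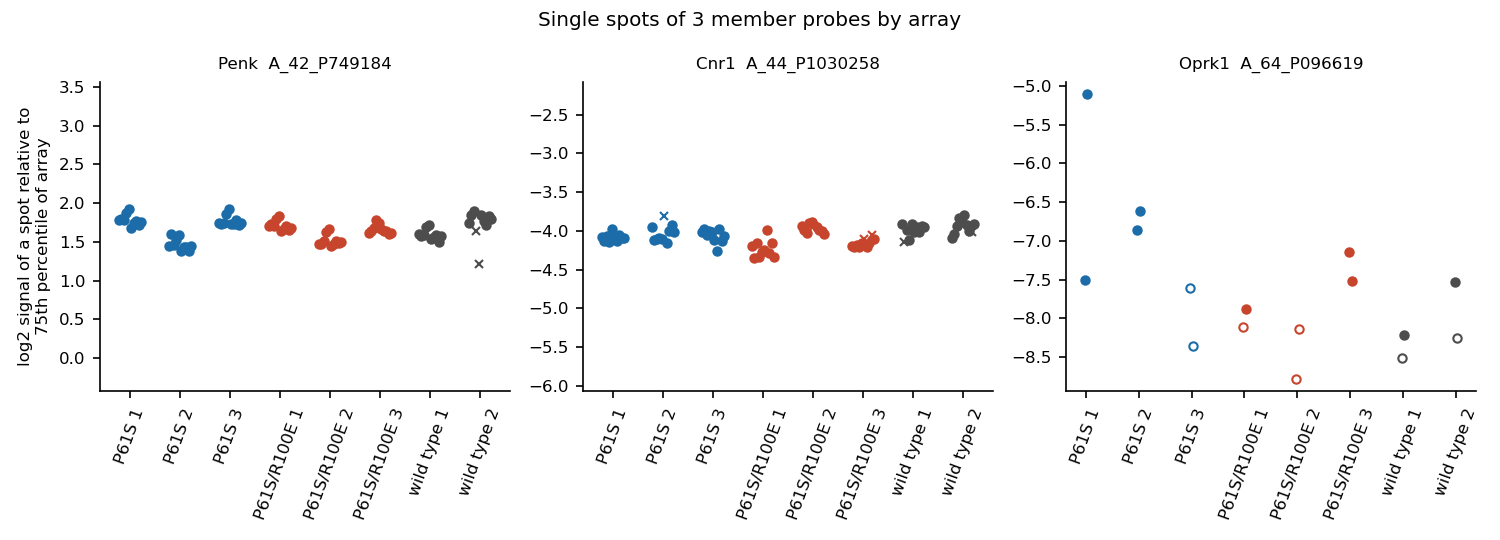
Log2 signal of single spots (vertical axis, each panel with its own range of 4 units) by array for Penk, the 10-spot Cnr1 probe and Oprk1, with open points for spots not well above background and crosses for spots marked as outliers and left out. The spots of Penk and of the 10-spot Cnr1 probe lay close together on each array, while the 2 Oprk1 spots of P61S replicate 1 lay at -7.50 and -5.11.

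For P61S/R100E against P61S, no member had groups that stood apart. At an unadjusted p under 0.05 there were 0 of 10 member probes, where 4.01% of all tested probes passed (457 higher and 489 lower), and 0.0% passed the adjusted threshold. The groups did not overlap for 0 of 10 members, against 14.0% of all probes (5.75% higher and 8.23% lower with P61S/R100E). Of the 10, 5 were lower with P61S/R100E, where 57.0% of all probes were, and the member median was 0.01 log2 units against -0.02 over all tested probes. With slide column as a linear covariate the member median was -0.16.

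Against wild type, most members read lower with either altered protein. Counts over the 10 include Pdyn and the Oprl1 probe, which were tested only through the group in which each was highest; the other 8 probes were above background on all arrays. For P61S/R100E this held for 9 of 10 probes, all but Pdyn, where 62.4% of all probes were lower; the member median was -0.34 and that of all probes -0.06. Of the 8 fully detected probes, 8 were lower, as were 61.5% of the 21657 such probes on the array. None of the 10 passed an unadjusted p under 0.05 (5.04% of all probes) or the adjusted threshold (0.0%), and 1 of 10 had groups that did not overlap (15.1% of all probes; 5.86% with P61S/R100E higher and 9.2% lower). That 1 was Pdyn, for which nothing is read from the count, and of the 8 fully detected probes there were 0. For P61S, 9 of 10 were lower, again all but Pdyn, where 60.1% of all probes were; the member median was -0.32 and that of all probes -0.04. Of the 8 fully detected probes, 8 were lower, as were 60% of such probes on the array, and 5 had groups that did not overlap, against 16.9%. The 8 include all Oprm1 probes and both Cnr1 probes, so a gene can count more than once. The groups did not overlap for 5 of 10 probes, all lower with P61S (1 Oprm1 probe, Oprd1, both Cnr1 probes and Pnoc), against 16.6% of all probes in either direction, 9.23% lower and 7.39% higher. At an unadjusted p under 0.05 there was 1 of 10, the Cnr1 probe A_43_P11563, where 2.07% of all probes passed, and 0.0% passed the adjusted threshold. Both comparisons share the wild type arrays.

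**Figure D3:**
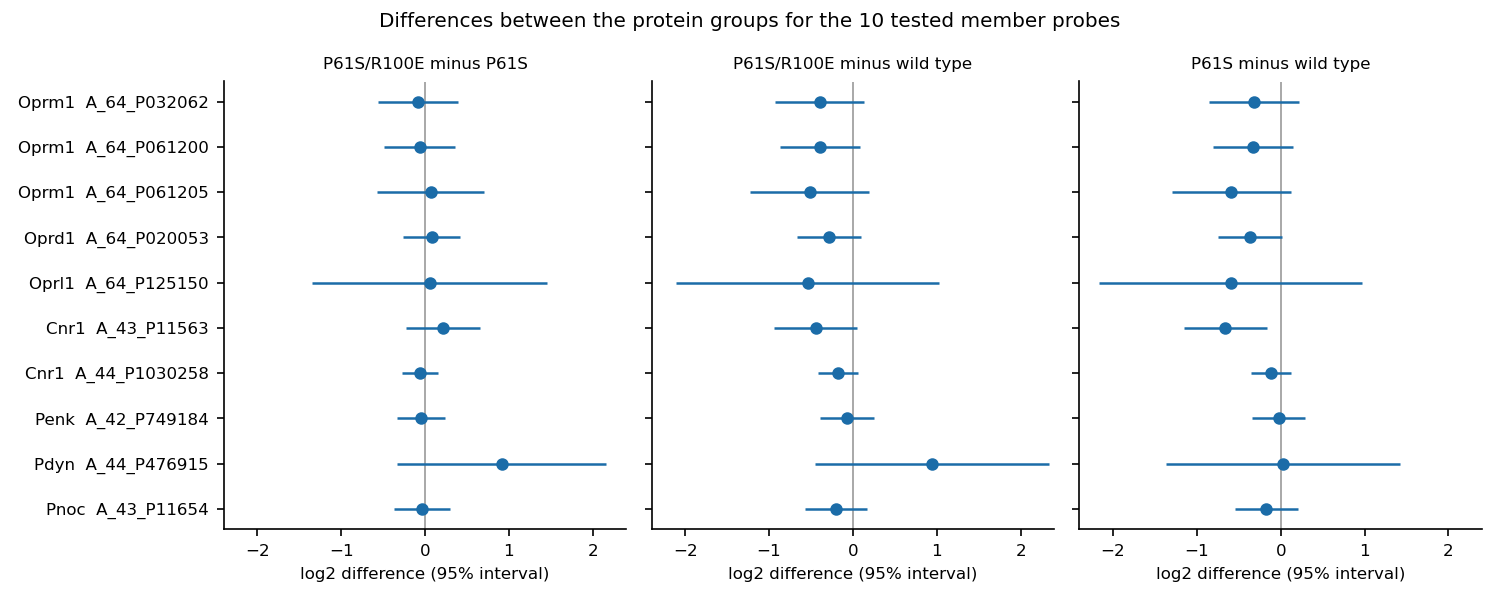
Log2 difference (horizontal axis) with 95% bounds from the limma fit for each of the 10 tested probes in the 3 comparisons of groups. Bounds include 0 in all but P61S minus wild type for Cnr1 A_43_P11563 (-0.66), and they are widest for Pdyn and Oprl1.

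The wild type means of most receptor probes depended on wild type replicate 2, while that of the 10-spot Cnr1 probe did so little. On that array the Oprm1 probes were 0.62, 0.68 and 1.03 above their mean on the other 7 arrays, Oprd1 0.56 above, Oprl1 1.34 above and Cnr1 0.71 and 0.14 above. Probes of like signal (within 0.5 log2 units) were also high there: their median was 0.35, 0.36 and 0.35 beside the Oprm1 probes, 0.33 beside Oprd1, 0.45 beside Oprl1, and 0.33 and 0.29 beside the Cnr1 probes. Beside the brighter peptide genes it was -0.03 and -0.01, and Penk and Pnoc were 0.16 and 0.22 above their mean. Pdyn was 0.88 below its mean on this array, where probes of like signal were 0.54 above. Other arrays also departed at dim signal. On P61S replicate 2 the median of like probes was 0.47 beside Oprl1, 0.52 beside Pdyn and 0.10 beside the brighter Oprd1. On P61S replicate 3 it was -0.36 beside Oprl1 and -0.40 beside Pdyn. Without wild type replicate 2 the member median was -0.05 for P61S/R100E minus wild type and -0.10 for P61S minus wild type. Without wild type replicate 1 these medians were -0.59 and -0.60. Each of these fits rests on 1 wild type array, so no count of members is read from it. With slide column as a linear covariate the medians were -0.08 and 0.16; no other group had an array in column 4, so these values extend the trend over columns 1 to 3 to it.

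**Figure D4:**
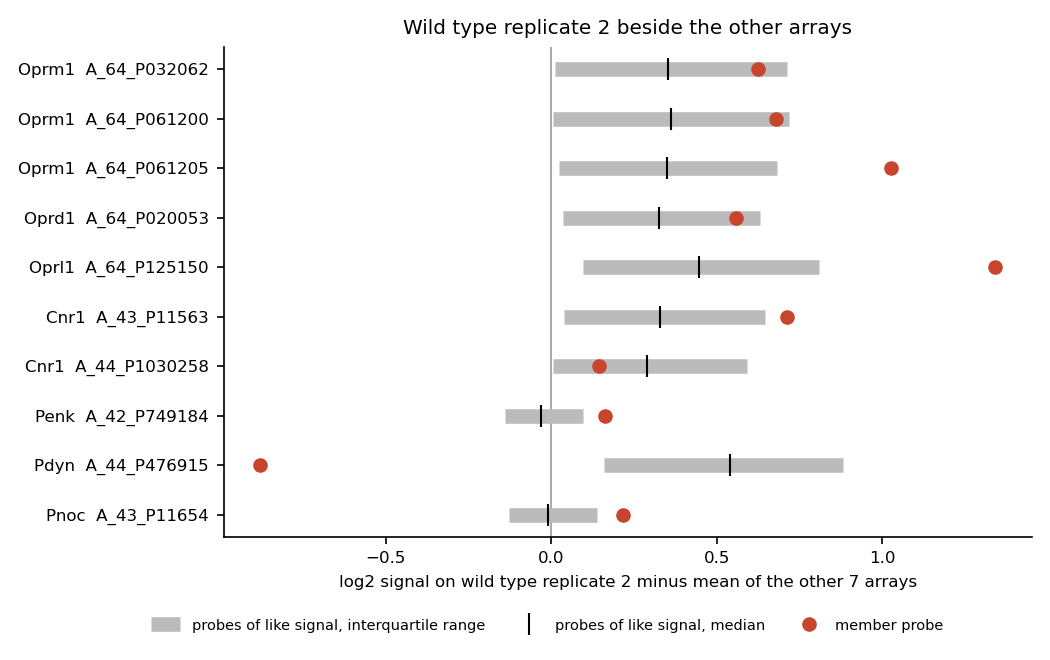
Log2 signal on wild type replicate 2 minus the mean of the other 7 arrays (horizontal axis) for each tested member probe (points), with the median (line) and interquartile range (bar) of probes of like signal. All receptor points lay right of 0, as did the medians of like probes beside them, and Pdyn alone lay left of it.

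When P61S/R100E was set against the mean of P61S and wild type, 0 of 10 member probes passed the adjusted threshold (0.00424% of all probes, 1 probe) and 0 the unadjusted one (5.07%). The groups did not overlap for 0 of 10, against 5.51% of all probes (2.37% higher and 3.14% lower), and 9 of 10 were lower by some amount, as were 61.4% of all probes. The Pdyn difference was 0.93 (bounds -0.20 to 2.05, adjusted p = 0.8211 by limma), and the member median was -0.12 against -0.05 over all probes.

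The other genes of the pathway were read from 6 lists with 1 probe per gene, 72 genes tested in all, and none passed the adjusted threshold in any comparison. Of all 12148 genes tested, 0 passed it in each comparison of single groups, and 1 passed against the mean of P61S and wild type. The 12 genes of opioid peptide processing and breakdown, among them the convertase Pcsk2 and the enkephalin-degrading neprilysin Mme, had 0 at an unadjusted p under 0.05 for P61S/R100E against P61S, against 4.68% of all genes. Their median difference was 0.07, with Mme at 0.23 and the endothelin-converting enzyme Ece2 at -0.26. The 10 genes of endocannabinoid synthesis and breakdown had a median of -0.06, with the monoacylglycerol lipase Mgll at 0.22 and the phosphodiesterase Gde1 at -0.23. The 10 other receptors and partners had a median of -0.02 and the 8 desensitization genes (kinases and arrestins) -0.0034, each with 0 at an unadjusted p under 0.05.

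Inhibitory G protein subunits and regulators had 3 of 21 genes at an unadjusted p under 0.05 for P61S/R100E against P61S, all lower, where 4.68% of all genes passed (288 higher and 280 lower). These were the RGS genes Rgs14, Rgs4 and Rgs2, whose products shorten G protein signals (Rgs2 ranked 3 in its list by p and was named after its value was seen). Rgs4 read 3.42, 3.42 and 3.44 with P61S, 3.09, 3.11 and 3.13 with P61S/R100E, and 3.36 and 3.64 with wild type. Rgs14 read -2.46, -2.60 and -2.52, then -3.11, -2.94 and -2.85, then -2.57 and -2.41. For Rgs4, Rgs14 and Rgs2 the 3 P61S/R100E arrays lay below all 5 others, as they did for 3.14% of all tested probes. These genes were named for small p in the same values, so the separation adds nothing to that p. P61S/R100E minus P61S was -0.32 (standard error 0.09, adjusted p = 0.9995 by limma) for Rgs4, -0.44 (0.10, adjusted p = 0.6539) for Rgs14 and -0.20 for Rgs2. With slide column as a linear covariate, Rgs4 was at -0.31 and Rgs14 at -0.35, with an unadjusted p of 0.12 and 0.10 (limma, adjusted p = 0.9991 for both). Against wild type Rgs4 was at -0.39 and Rgs14 at -0.48, and Rgs7, also named after its value was seen, at -0.51 was the other gene at an unadjusted p under 0.05, again 3 of 21 beside 5.19% of all genes. There the column covariate put Rgs4 at -0.40 and Rgs14 at -0.58, with an unadjusted p of 0.063 and 0.022 (limma, adjusted p = 0.9919 for both). No other group had an array in the wild type column. The list's median was -0.13 against P61S and -0.15 against wild type, and those of all genes -0.01 and -0.03. Without wild type replicate 1 the list's median against wild type was -0.34.

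Among 11 tested effectors, channels and adenylyl cyclases, 1 was at an unadjusted p under 0.05 in each of these comparisons, Adcy8, a calcium-stimulated adenylyl cyclase, beside 4.68% and 5.19% of all genes. It read -4.12, -4.02 and -4.13 with P61S, -3.57, -3.72 and -3.66 with P61S/R100E, and -3.96 and -4.15 with wild type. The 3 P61S/R100E arrays lay above all 5 others, as they did for 2.37% of all tested probes. Adcy8 too was named for its small p in the same values. The Adcy8 difference was 0.44 from P61S (standard error 0.09, adjusted p = 0.5726 by limma) and 0.41 from wild type (adjusted p = 0.7456). With slide column as a linear covariate the first was 0.30 (unadjusted p = 0.098 and adjusted p = 0.9991 by limma). The second was then 0.54 (unadjusted p = 0.015 and adjusted p = 0.9919 by limma), though no other group had an array in the wild type column. For P61S against wild type, 0 of the 72 list genes had an unadjusted p under 0.05, where 1.72% of all genes did.

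**Figure D5:**
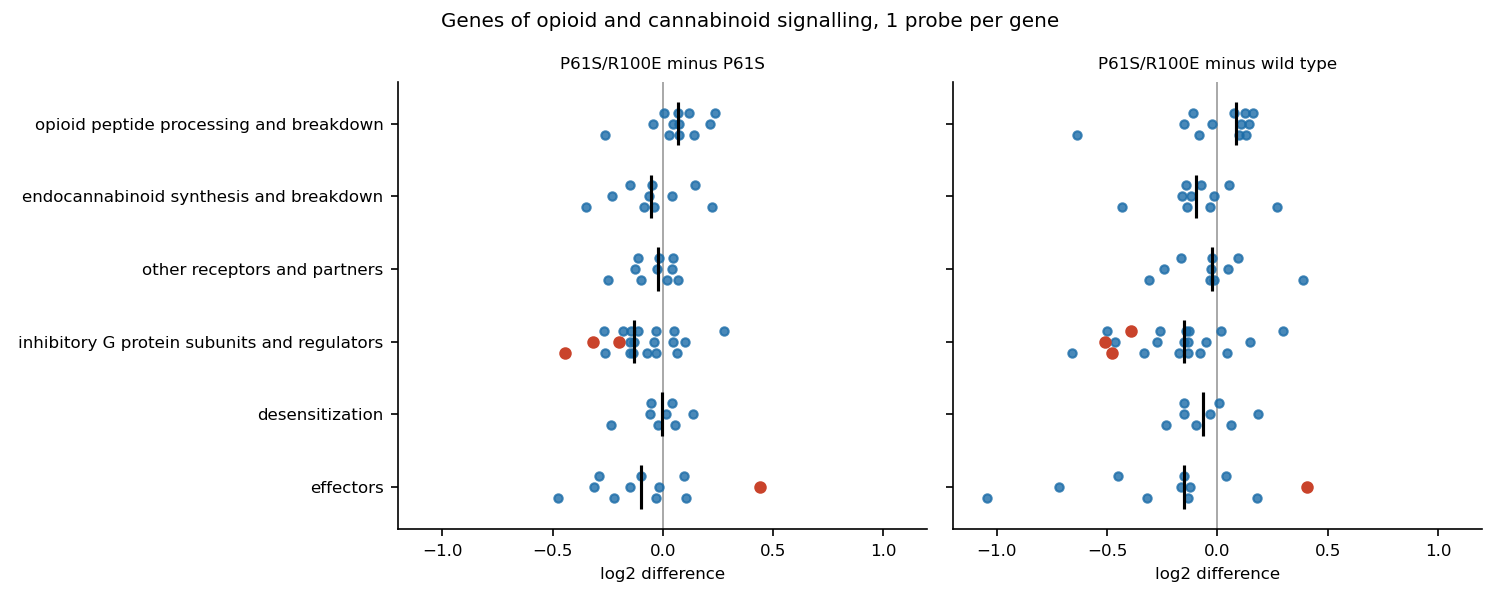
Log2 difference (horizontal axis) of each tested gene of the 6 lists for P61S/R100E minus P61S (left) and minus wild type (right), 1 point per gene, with a line at each list's median. Medians lay between -0.15 and 0.09; red points had an unadjusted p under 0.05 and are, on both sides, Rgs4 and Rgs14 left of 0 and Adcy8 right of 0, with Rgs2 on the left side and Rgs7 on the right.

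Markers of the neurons that carry these receptors were read beside them. The 5 genes listed for peptidergic nociceptors had summed signals from 95.1 to 116.8 times the 75th percentile with P61S, 88.5 to 99.2 with P61S/R100E and 102.2 to 102.8 with wild type. Of the 5, 3 were lower for P61S/R100E against P61S at an unadjusted p under 0.05, beside 4.68% of all genes, and 2 against wild type, beside 5.19%. Against P61S these were Adcyap1 at -0.34, Trpv1 at -0.27 and Scn10a at -0.21, with adjusted p = 0.8455 for Adcyap1 and 0.9995 for the others (limma). Against wild type they were Trpv1 at -0.30 and Adcyap1 at -0.23, while Scn10a was at -0.0045. The 12 pan-neuronal genes had a median of 0.00023 with 6 lower, and 1, the tubulin Tubb3, was at an unadjusted p under 0.05, at 0.35 (adjusted p = 0.6539 by limma). The other 6 marker lists had 0 genes at that threshold against P61S, with medians of -0.08 for 3 non-peptidergic nociceptor genes, 0.05 for 5 of satellite glia, -0.01 for 8 of Schwann cells, 0.12 for 7 of fibroblasts, 0.01 for 6 of macrophages and -0.17 for 6 of endothelial and mural cells. The macrophage sums were 1.66 to 2.85 with P61S, 1.68 to 1.94 with P61S/R100E and 1.67 to 1.70 with wild type. The wide P61S range came mostly from Cd68, which had an SD of 1.09 in that group. Against wild type the macrophage gene Ptprc was higher with P61S/R100E, at 0.30 (unadjusted p = 0.037 and adjusted p = 0.7456 by limma). The part of cell makeup in the member values was not tested.

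For the 5 members whose brightest probe was above background on all arrays, the genes most like each in profile were found among 11448 named genes by Pearson's r over the 8 arrays, which all share 1 slide. Penk was most like Thap7 (0.993), Itga4 (0.979) and Hapln3 (0.961), and 25 genes exceeded 0.9. Pnoc was most like Homer3 (0.967), Dusp19 (0.961) and Dpm3 (0.959), and the 10-spot Cnr1 probe like Mmachc (0.964), Slc12a5 (0.964) and Vps50 (0.957). Oprm1 (A_64_P061205) was most like Tmem167b (0.992), Alg10 (0.988) and Uqcr11 (0.987), and Oprd1 like Fstl1 (0.992), Clock (0.989) and Rap1gds1 (0.984). For Oprm1 381 genes exceeded 0.9 and for Oprd1 349, against 29 for Pnoc and 18 for Cnr1. Wild type replicate 2 was the highest array for both Oprm1 and Oprd1. Over the 7 arrays without it, 68 genes exceeded 0.9 for Oprm1 and 88 for Oprd1, against 51 for Penk, 112 for Pnoc and 52 for Cnr1. The named genes then correlated at 0.950 to 0.963 with Oprm1 and at 0.921 to 0.968 with Oprd1. Probes of 1 gene were less alike. Oprm1 A_64_P061205 correlated with A_64_P032062 and A_64_P061200 at 0.738 and 0.875, and at 0.188 and 0.355 over the 7 arrays. Both Cnr1 probes correlated with each other at 0.327 and -0.051. The named genes are the highest of 11448 over few arrays, and a link was not tested. Counts over 8 and over 7 arrays cannot be compared directly.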

How the data were processed

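The authors' deposited scanner exports held background-subtracted spot intensity values from Agilent Feature Extraction 10.7.3.1 (protocol GE1_107_Sep09), per the file headers; RNA of integrity number under 8.0 was discarded, per the labels. Signals were log2 of the processed intensity minus the log2 75th percentile of the array; spots of a probe were averaged without those marked as outliers. Tested probes were those with every used spot marked by the scanner software as well above background throughout 1 group or more. limma 3.58.1 (R 4.3.3) fitted 8 arrays with 3 group means (residual degrees of freedom 5, prior 1.93), with Benjamini-Hochberg adjustment over 23585 probes. The script recovered known changes in simulated data. The authors' deposited log2 matrix (22018 probes, 8 of the 12 member probes) served as an alternative. The files held no mean spot signal, so normexp (offset 50) used the median signal. The number of arrays limits precision.

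All member probes are given; of each list, the 2 genes of smallest p in each direction could be named; likeness took the 3 highest correlations. Members, lists and tests were chosen with earlier results of these data known. The array design was built on rn4, and its coordinates were not used here; promoter windows came from a RefSeq table (GRCr8) that held 3 of the 8 members. Tables used pandas 2.3.3 and numpy 2.4.6 under Python 3.11.15; plots used matplotlib 3.10.9. Alternatives were other scalings, background corrections, filters, blocks and variance settings, and each array left out.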

Additional observations from a re-analysis of the deposited data

How the results depend on the processing

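Across 20 alternative settings, 0 of 734 member values passed the adjusted threshold, and 54 changed sign, each with 95% bounds that included 0 in both settings. The member median for P61S/R100E minus wild type was -0.082 with slide column as a covariate and ran from -0.59 to -0.049 as single arrays were left out; for P61S minus wild type it was 0.16 and ran from -0.60 to -0.10. The lowest and highest came without wild type replicate 1 and without wild type replicate 2. At an unadjusted p under 0.05, members numbered 0 to 1 for P61S/R100E minus P61S as arrays were left out. The 1 was Pdyn, which was tested only through P61S/R100E. The share of all probes in those fits is not given here, so nothing is read from this count. No such count is given against wild type, where a fit without 1 wild type array rests on the other alone.

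Over all probes, the count past the adjusted threshold for P61S/R100E minus P61S was 1 with only probes above background on all arrays, 6 with a robust variance trend, 1 at an adjusted p under 0.10, and 0 to 3 with single arrays left out. For P61S/R100E minus wild type it was 1 with normexp, 1 with quantile normalization, 1 with the stricter filter, 1 with the trend, 1 at 0.10, and 0 to 1244 with single arrays left out, the 1244 without wild type replicate 1. For P61S minus wild type it was 1 with normexp, 1 with quantile normalization, and 0 to 250, again without wild type replicate 1. Against the mean of both groups the 1 probe became 9 with normexp, 2 with median centring, 0 with the deposited values, 0 without a filter, 3 with the stricter filter, 0 with slide row as a block, 0 with slide column, 9 with the trend, 8 at 0.10, and 0 to 24 with arrays left out. Pathway list genes past the threshold numbered 0 to 4 and 0 to 1 in the comparisons with wild type with arrays left out; of those named by the rule these were Rgs4 (-0.53), Adcy1 (-2.21) and Ece2 (-1.19), all for P61S/R100E without wild type replicate 1. With 1 wild type array left, that array is assumed to vary like the other groups.

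The replicate numbers gave no pairing: deviations of same-numbered arrays of P61S and P61S/R100E correlated at 0.051, -0.021 and 0.0081. With the replicate block, 0 probes were called in any comparison and the member medians were 0.01, -0.28 and -0.29. Signal over background limits Pdyn, Oprk1 and Oprl1, which were near it on most arrays.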

Other observations

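The second spot of the untested Oprl1 probe A_43_P12591 on P61S replicate 2 read -4.45 and was marked as an outlier by the scanner software, while the spot that was kept read -7.33.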
